A study of Mus musculus with 5 samples.

Results

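Immediate early response genes were examined in the thoracic aorta of male C57BL/6 mice. They comprised 34 genes, taken from a fixed list of symbols, of 18194 genes that the array names. Each gene was read from its brightest single-gene probe set, the one with the highest mean over the 5 arrays. All 34 had at least 1 such probe set and 16 had several, giving 63 probe sets of 45037 in all. The 3 P467L arrays held RNA of mice that carry a dominant negative human PPARγ with the P467L mutation, driven by the promoter of the smooth muscle myosin heavy chain gene, in addition to their own Pparg gene. The 2 non-transgenic arrays held RNA of littermates without the transgene. Each array was an Affymetrix mouse expression array hybridised with RNA pooled from 6 to 8 aortas, and the submitters call the pools independent, so p-values measure the spread between pools. Ages of the mice are not given in the sources used here. The promoter directs the transgene to smooth muscle, while the RNA came from the whole vessel, so fewer cells of a type and less RNA per cell cannot be told apart.

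Immediate early genes are transcribed within minutes of a stimulus, without new protein synthesis, by factors that already sit in the cell. Serum response factor acts with ternary complex factors or myocardin-related factors at CArG boxes, and CREB acts at cAMP response elements. Most of the products are transcription factors of the AP-1, EGR, NR4A and KLF families, and others end the response by dephosphorylating MAP kinases (DUSP) or by destroying short-lived mRNAs (ZFP36). In smooth muscle they are known to respond to stretch, growth factors and vasoconstrictors.

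Promoter stretches are shown because most of the members that could be searched carry the core of the cAMP response element. RefSeq promoter windows (GRCm38.p6, 250 bases before to 50 after each annotated start) were found for 26 of the 34 genes. Arc, Egr1, Egr3, Ier2, Myc, Ccn2, Fosl1 and Klf10 had no window and are not covered. Both strands were searched, and a gene counted once if any of its windows held the motif. The cAMP response element core TGACG was present in 17 of the 26 genes (65.4%), against 23.0% of 27025 genes in the table. The full palindrome TGACGTCA, which contains the core, was present in 3 (11.5%, against 2.03%), and the CArG box in 3 (11.5%, against 1.81%). The EGR motif GCGNGGGCG was present in 10 (38.5%, against 6.27%), while the AP-1 motif TGANTCA was present in 1 (3.85%, against 8.97%), the ETS motif CCGGAAG in 1 (3.85%, against 9.93%) and TATAAA in 6 (23.1%, against 15.7%). In the stretches shown here, all written 5′ to 3′ on the gene's strand, capitals mark these motifs on either strand. Nr4a2 (chr2:57124084-57124213, minus strand) has 4 TGACG cores, Egr2 (chr10:67537484-67537513, plus strand) a CArG box, Maff (chr15:79347480-79347509, plus strand) and Dusp1 (chr17:26508597-26508626, minus strand) the full palindrome; the Egr2 and Maff stretches precede an annotated start that is not the most upstream one of its gene. Ccn1 (chr3:145649986-145650065, minus strand), Btg1 (chr10:96616881-96617000, plus strand) and Fos (chr12:85473750-85473889, plus strand) have the core and TATAAA. The first 4 genes had higher levels in P467L aortas, Ccn1 and Btg1 lower ones, and Fos overlapped between the groups. The other palindrome was in Btg2 and the other CArG boxes in Dusp5 and Zfp36, which all overlapped and are not shown. By direction, the core was present in 6 of 8 higher, 2 of 4 lower and 9 of 14 overlapping genes.
Nr4a2: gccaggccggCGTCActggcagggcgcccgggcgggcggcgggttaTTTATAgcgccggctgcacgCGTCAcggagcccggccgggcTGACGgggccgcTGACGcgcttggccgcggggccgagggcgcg
Egr2: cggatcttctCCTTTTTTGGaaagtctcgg
Maff: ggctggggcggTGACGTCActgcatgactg
Dusp1: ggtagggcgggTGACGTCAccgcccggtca
Ccn1: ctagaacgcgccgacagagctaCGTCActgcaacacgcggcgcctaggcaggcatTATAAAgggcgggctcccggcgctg
Btg1: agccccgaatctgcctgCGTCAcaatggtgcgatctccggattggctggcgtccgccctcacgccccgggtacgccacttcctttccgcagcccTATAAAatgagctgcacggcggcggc
Fos: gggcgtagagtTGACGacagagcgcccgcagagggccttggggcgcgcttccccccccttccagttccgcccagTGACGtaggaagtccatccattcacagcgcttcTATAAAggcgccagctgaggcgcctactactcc

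Of the 5 arrays, 3 stood apart in one respect or another. P467L replicate 1 correlated with the others at 0.985 to 0.991 over all probe sets, while the other pairs ran from 0.995 to 0.997. In 842 probe sets it read lower than every other array by 1 log2 unit or more. Yet it was the highest array in 44.2% of all genes, against 8.32% to 16.6% for each other array. Among the members it was highest in 11 of 34, as was P467L replicate 3. Stomach transcripts were most abundant in non-transgenic replicate 2. The summed level (log2) of 11 stomach epithelium markers was 15.13 there and 11.71 in non-transgenic replicate 1. In P467L arrays it was 12.19 to 12.52. Some of these transcripts were also present in the other arrays. Gkn2 read 8.79 in non-transgenic replicate 1 and 10.02 to 10.23 in P467L arrays, above the array medians of 6.17 to 6.25. Atp4a, in contrast, read 5.65 and 5.33 to 5.70, below them. Non-transgenic replicate 1 was the lowest of the 5 arrays in 16 of the 34 members, while it was lowest in 17.4% of all genes. The smooth muscle markers Acta2, Myh11 and Tagln averaged 14.81, 13.90 and 14.67 in P467L arrays, against 14.79, 13.93 and 14.66 in non-transgenic arrays. Pparg measured 7.32, 7.27 and 7.27 in P467L arrays and 7.32 and 6.91 in non-transgenic arrays, with overlap; whether this probe set also reads the human transgene is not known.

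Some immediate early genes were higher in P467L aortas, fewer were lower, and 18 of the 34 overlapped or touched between the genotypes. Values are RMA log2 levels, and differences are P467L minus non-transgenic. In 12 of the 34 genes all 3 P467L arrays lay above both non-transgenic arrays, which is 35.3%, and this held for 16.1% of all genes. In 4 genes, or 11.8%, all P467L arrays lay below, and this held for 6.55% of all genes. The largest differences were in Egr3, Arc and Maff on the higher side and in Ccn1, Jun and Gadd45b on the lower side. The median difference was 0.11 log2 units over the members and 0.02 over all genes, with 23 members higher and 11 lower. None of the 34 passed limma at an adjusted p of 0.05, where the share called over all probe sets was 0%; the smallest adjusted p among members was 0.199. At an unadjusted p of 0.05, 9 members were higher (26.5%, against 6.94% of all genes) and 4 lower (11.8%, against 2.51%). Fewer arrays make separation commoner in any gene. Without P467L replicate 1, 15 members lay above and 5 below without overlap, against 21% and 14.9% of all genes. Without both this array and non-transgenic replicate 2 the counts were 20 and 6, against 31.8% and 28.1% of all genes. With each array centred on its median, 14 members lay above and 4 below, against 32.1% and 3.33% of all genes.

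**Figure D1:**
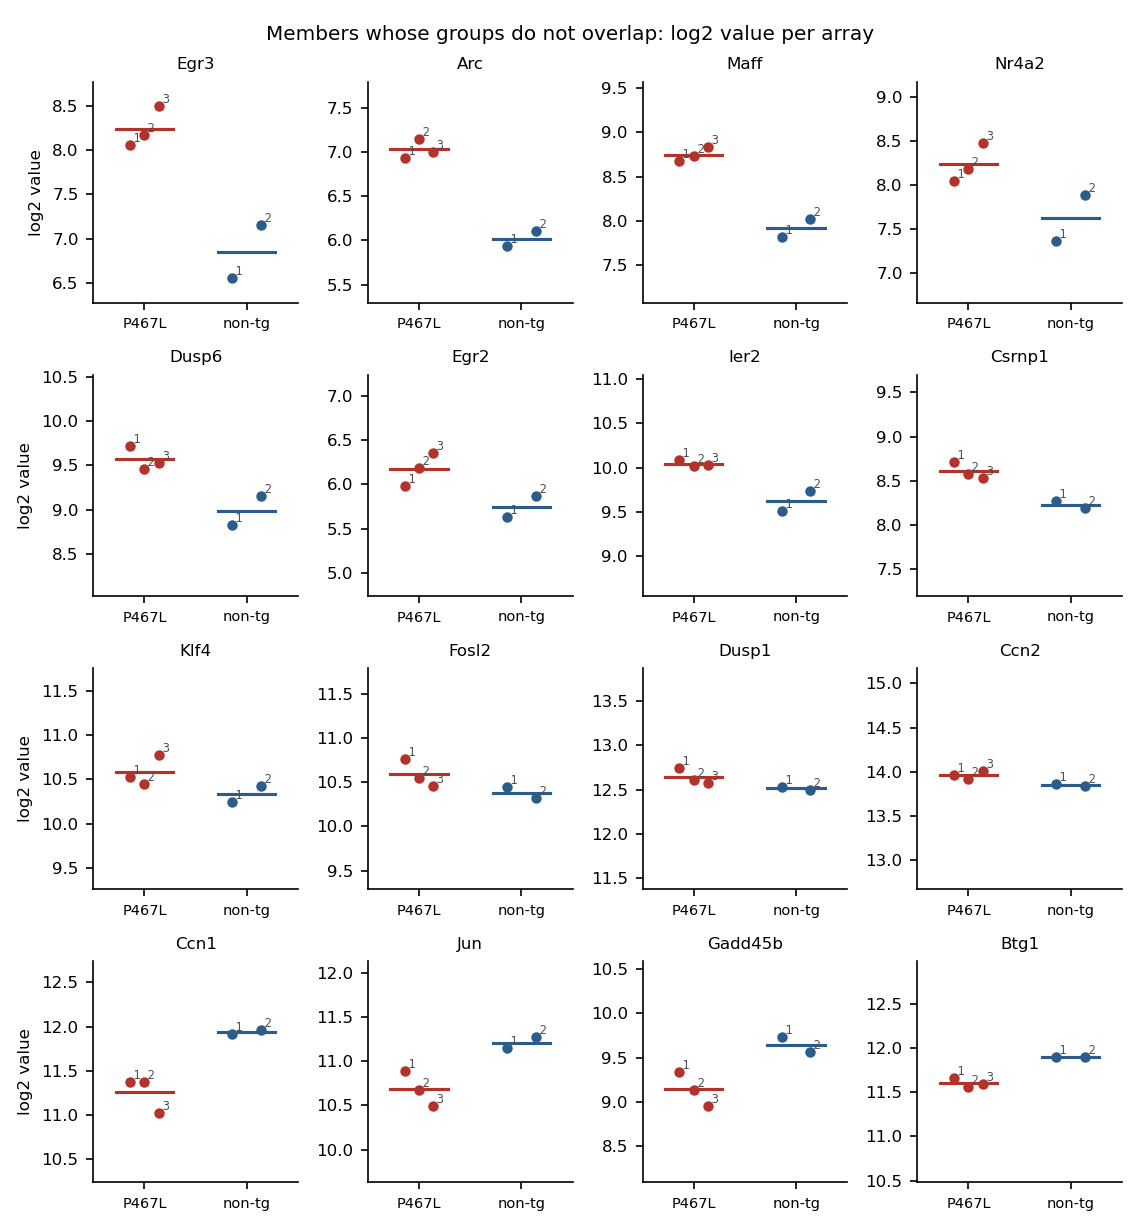
RMA log2 value (vertical axis, with the same span in each panel) of the 16 immediate early genes whose groups do not overlap, in 3 P467L arrays (red, left) and 2 non-transgenic arrays (blue, right); small digits are replicate numbers and bars are group means. The widest gaps between the groups are in Egr3 (0.91), Arc (0.83) and Maff (0.66).

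The EGR family encodes zinc finger transcription factors induced through serum response factor. Egr3 measured 8.06, 8.17 and 8.50 in P467L replicates 1 to 3, against 6.55 and 7.15 in non-transgenic replicates 1 and 2. Every P467L array lay at least 0.91 above the non-transgenic arrays, and the difference of 1.39 (SE 0.24), or 2.63-fold, ranked at place 13 from the top among 18194 genes. The adjusted p of limma was 0.367. A second Egr3 probe set measured 7.21 to 7.23 in P467L arrays and 7.16 to 7.21 in non-transgenic arrays, a difference of 0.03, so the probe sets of this gene disagreed. Egr2, a dim member, measured 5.98, 6.19 and 6.35 in P467L arrays and 5.63 and 5.87 in non-transgenic arrays. Its difference was 0.42 (SE 0.14), with 0.36 in the other probe set, and the groups were 0.11 apart. Egr1, the family's best studied member, measured 11.35, 11.44 and 11.52 in P467L arrays and 10.84 and 11.35 in non-transgenic arrays. The lowest P467L array thus equalled the higher non-transgenic one, and the difference of 0.34 had a 95% interval from -0.12 to 0.81.

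The NR4A genes encode orphan nuclear receptors that act without a known hormone. Nr4a2 measured 8.05, 8.18 and 8.47 in P467L arrays and 7.37 and 7.89 in non-transgenic arrays. The groups were 0.16 apart, less than the 0.52 between the non-transgenic arrays, and the difference was 0.60 (SE 0.21, limma adjusted p = 0.65). Of its 6 probe sets, the next ones gave 0.51 and 0.27, and the remaining 3 gave 0.00, -0.03 and -0.13. The last of these, a dim one, separated the groups the other way. It read 6.15, 6.15 and 6.01 in P467L arrays and 6.24 and 6.22 in non-transgenic arrays. Nr4a3 measured 8.05, 8.44 and 8.93 in P467L arrays and 7.71 and 8.25 in non-transgenic arrays, so its groups overlapped, and its other probe sets gave 0.04 and -0.11. Nr4a1 measured 10.57, 10.71 and 10.57 in P467L arrays, all between the 10.12 and 10.90 of the non-transgenic arrays.

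AP-1 is a dimer of FOS and JUN proteins. Jun measured 10.89, 10.67 and 10.49 in P467L arrays and 11.15 and 11.27 in non-transgenic arrays. All P467L arrays were lower, by at least 0.26, and the difference was -0.53 (SE 0.13, limma adjusted p = 0.515), or 0.694-fold; the second Jun probe set gave -0.44, also without overlap. Junb, whose protein can oppose JUN at target promoters, measured 8.24, 8.45 and 8.48 in P467L arrays and 7.69 and 8.24 in non-transgenic arrays. Its groups touched at 8.24. Jund, the constitutively expressed relative, differed by -0.04 (SE 0.11), and by 0.08 in a dim second probe set.

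Among the FOS genes, Fos measured 9.81, 9.83 and 9.83 in P467L arrays, between the non-transgenic 9.34 and 10.12. The P467L arrays were nearly equal, while the non-transgenic arrays were 0.78 apart. Fosb, a close relative of Fos, differed by 0.07 (SE 0.30) and Fosl1, which encodes FRA-1, by 0.04 (SE 0.08), both with overlap. Fosl2, which encodes FRA-2, measured 10.76, 10.55 and 10.46 in P467L arrays and 10.44 and 10.32 in non-transgenic arrays, higher by 0.21 (SE 0.11) with the groups 0.02 apart, and its dimmer probe set gave -0.04. Maff, a small MAF protein that pairs with other bZIP factors, measured 8.68, 8.73 and 8.83 in P467L arrays and 7.82 and 8.02 in non-transgenic arrays. The P467L arrays lay within 0.15 of each other and at least 0.66 above the others; the difference was 0.83 (SE 0.08), or 1.77-fold, with a limma adjusted p of 0.209. Atf3, a stress-induced bZIP factor, measured 9.24, 9.16 and 8.87 in P467L arrays and 9.12 and 9.62 in non-transgenic arrays, with overlap.

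Arc, which encodes a cytoskeletal protein best known from synapses, measured 6.93, 7.15 and 7.0 in P467L arrays and 5.94 and 6.10 in non-transgenic arrays. The difference of 1.01 (SE 0.09), or 2.01-fold, had a 95% interval from 0.76 to 1.26 and the smallest p of the members (unadjusted p = 0.000292, limma adjusted p = 0.199). Its non-transgenic mean of 6.02 lies just under the array medians of 6.17 to 6.25. Ier2, a nuclear protein of the early growth response, measured 10.09, 10.02 and 10.03 in P467L arrays and 9.51 and 9.74 in non-transgenic arrays, and Csrnp1, a cysteine- and serine-rich nuclear protein, 8.71, 8.58 and 8.53 in P467L arrays and 8.27 and 8.19 in non-transgenic arrays. All P467L arrays of both genes were higher, with differences of 0.42 (SE 0.08) and 0.38 (SE 0.07); a dimmer Csrnp1 probe set gave -0.03. Gadd45b, a stress-induced activator of MAP kinase signalling, measured 9.34, 9.14 and 8.95 in P467L arrays and 9.73 and 9.56 in non-transgenic arrays. It was lower in all P467L arrays, at -0.50 (SE 0.14), and its other probe sets gave -0.34 and -0.23 with overlap. Ier3, a modulator of apoptosis, and Ier5, a regulator of heat shock factor activity, overlapped at -0.15 (SE 0.12) and 0.10 (SE 0.15).

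The CCN genes encode secreted matricellular proteins and are standard targets of the YAP and TAZ coactivators as well as of serum response factor. Ccn1 (formerly Cyr61) measured 11.38, 11.38 and 11.02 in P467L arrays and 11.92 and 11.96 in non-transgenic arrays. All P467L arrays were at least 0.54 lower, and the difference was -0.68 (SE 0.13, limma adjusted p = 0.421), or 0.624-fold. All 4 Ccn1 probe sets separated the groups in this direction, with differences of -0.68, -0.68, -1.42 and -1.48. In the last of these the P467L arrays read 9.55, 10.14 and 8.96, against 11.17 and 10.89 in the non-transgenic arrays. These probe sets read 1 transcript family in the same 5 RNA pools and are not replicates. Ccn2 (formerly Ctgf) went the other way by a small amount, with 13.97, 13.92 and 14.01 in P467L arrays and 13.86 and 13.84 in non-transgenic arrays, a difference of 0.12 (SE 0.04).

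**Figure D2:**
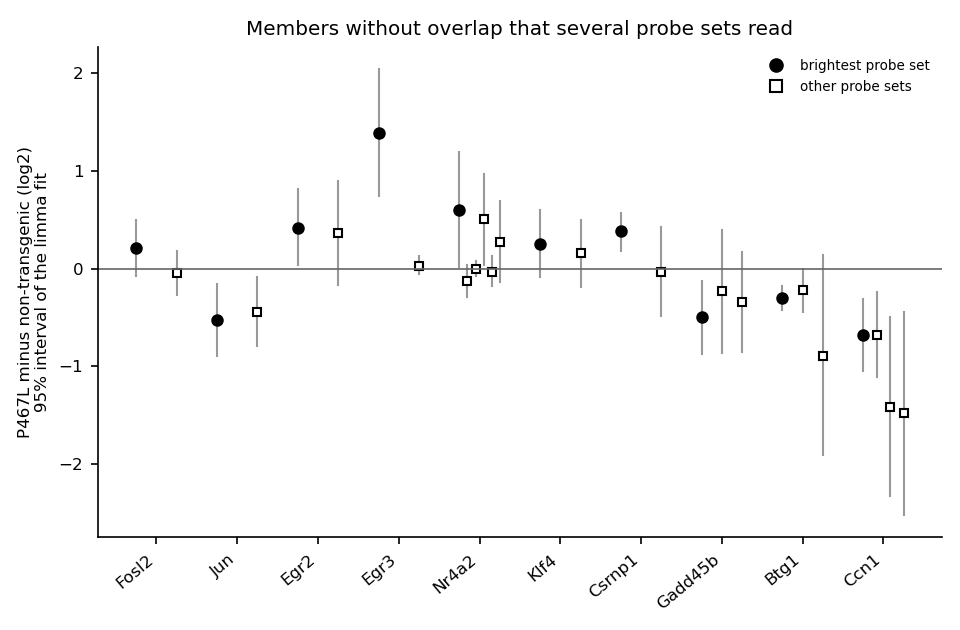
P467L minus non-transgenic difference on the log2 scale (vertical axis) with its 95% interval from the limma fit, for every probe set of the 10 members that have several and whose groups do not overlap in the brightest (filled circles; open squares are the other probe sets). All 4 Ccn1 and all 3 Gadd45b and Btg1 probe sets lie below 0, while the second Egr3 probe set lies at 0.03.

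Feedback inhibitors of the response were read by the DUSP phosphatases and by Zfp36 and the BTG genes. Dusp6, which dephosphorylates ERK, measured 9.72, 9.46 and 9.53 in P467L arrays and 8.83 and 9.15 in non-transgenic arrays. All P467L arrays were higher, and the difference was 0.58 (SE 0.13, limma adjusted p = 0.486), or 1.49-fold. Dusp1, which acts on p38 and JNK, measured 12.75, 12.61 and 12.58 in P467L arrays and 12.53 and 12.50 in non-transgenic arrays, higher by 0.13 (SE 0.07) with the groups 0.05 apart. Dusp2 measured 6.70, 6.68 and 6.41 in P467L arrays and 6.70 and 6.79 in non-transgenic arrays, touching at 6.70, and Dusp5 measured 6.81 to 6.83 in P467L arrays and 6.83 to 6.86 in non-transgenic arrays. These are phosphatases of the nucleus that act on ERK. Btg1, an antiproliferative adaptor of mRNA deadenylation, measured 11.66, 11.56 and 11.59 in P467L arrays and 11.90 in both non-transgenic arrays. The difference of -0.30 (SE 0.04) was small but exceeded the spread in either group. Another Btg1 probe set gave -0.22 without overlap. The remaining, dim one gave -0.89, with the groups touching at 5.51 and the non-transgenic arrays 0.95 apart. Btg2, of the same family, gave -0.02 with overlap by its brightest probe set and 0.28 without overlap by the other. Zfp36, which destabilises AU-rich mRNAs, overlapped at 0.12 (SE 0.11).

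The KLF genes and Myc encode growth regulators. Klf4, which represses contractile genes in smooth muscle, measured 10.53, 10.45 and 10.78 in P467L arrays and 10.24 and 10.43 in non-transgenic arrays, 0.02 apart, and its second probe set overlapped. Klf10, a TGF-β-induced repressor, differed by 0.27 (SE 0.16) with overlap. Klf6 differed by -0.06 (SE 0.12), and its 5 probe sets ran from -0.41 to -0.03, all with overlap. Myc, dim on these arrays, differed by 0.10 (SE 0.08).

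**Figure D3:**
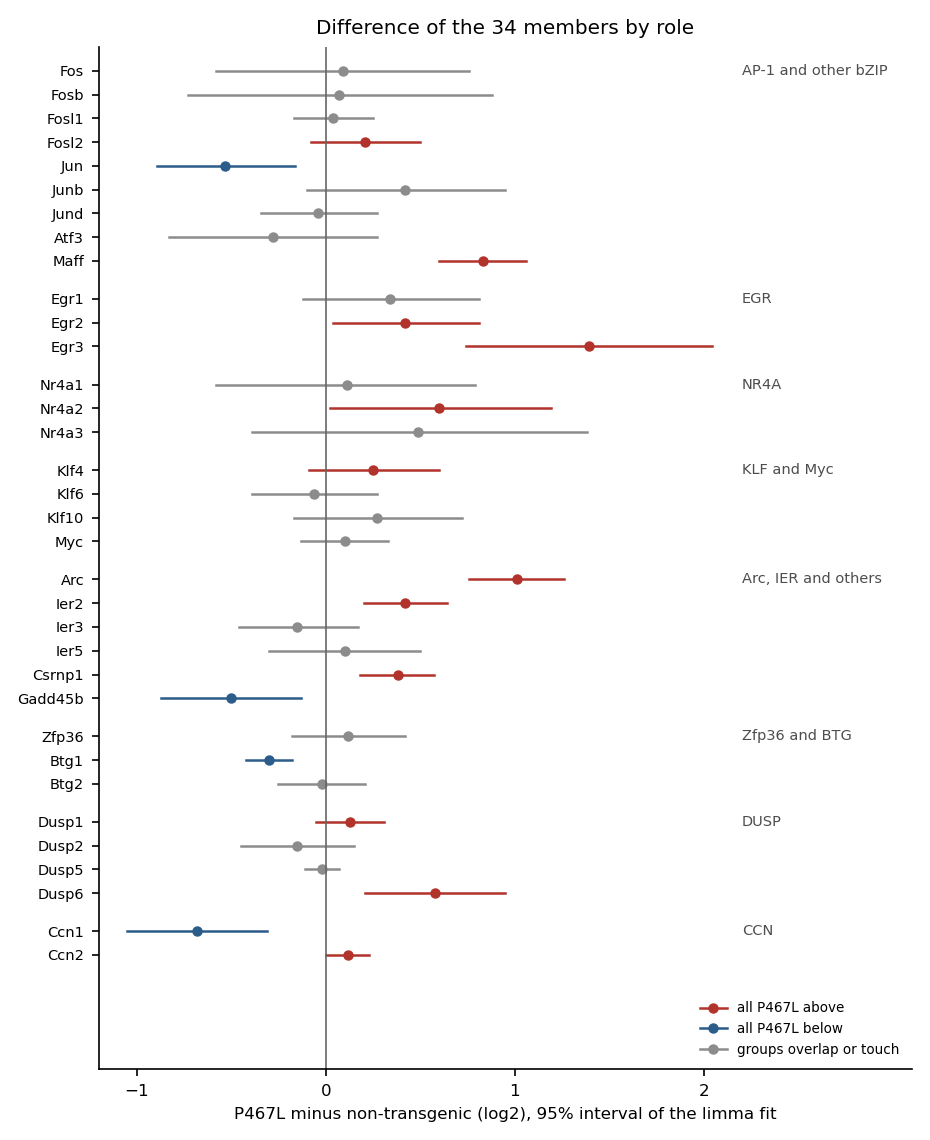
P467L minus non-transgenic difference (horizontal axis, log2) with its 95% interval from the limma fit for all 34 genes, ordered by role. Red marks genes in which all P467L arrays lie above both non-transgenic arrays, blue those in which all lie below, and grey those whose groups overlap or touch; Egr3 at 1.39 and Ccn1 at -0.68 are the extremes.

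The non-transgenic pools differed from each other in many of the classical members. Replicate 2 exceeded replicate 1 in 24 of the 34 genes, and by at least 0.3 log2 units in 12, which is 35.3% of the members and 1.72% of all genes. The 12 were Fos and Nr4a1 (0.78 each), Egr3 (0.60), Junb (0.55), Nr4a3 (0.54), Nr4a2 (0.52), Egr1 (0.51), Atf3 (0.50), Klf10 (0.44), Fosb (0.41), Dusp6 (0.32) and Ier3 (0.30). Of these, Egr3, Nr4a2 and Dusp6 still did not overlap with the P467L arrays. In 13 of the 34 members the gap between the non-transgenic arrays exceeded the difference between genotypes. Replicate 2 is also the array with the most stomach transcripts, and their part in these levels was not tested. Csrnp1 and Gadd45b were lower in non-transgenic replicate 2 than in replicate 1, by 0.08 and 0.17, and Btg1 and Ccn1 differed by 0.00 and 0.04 between them.

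**Figure D4:**
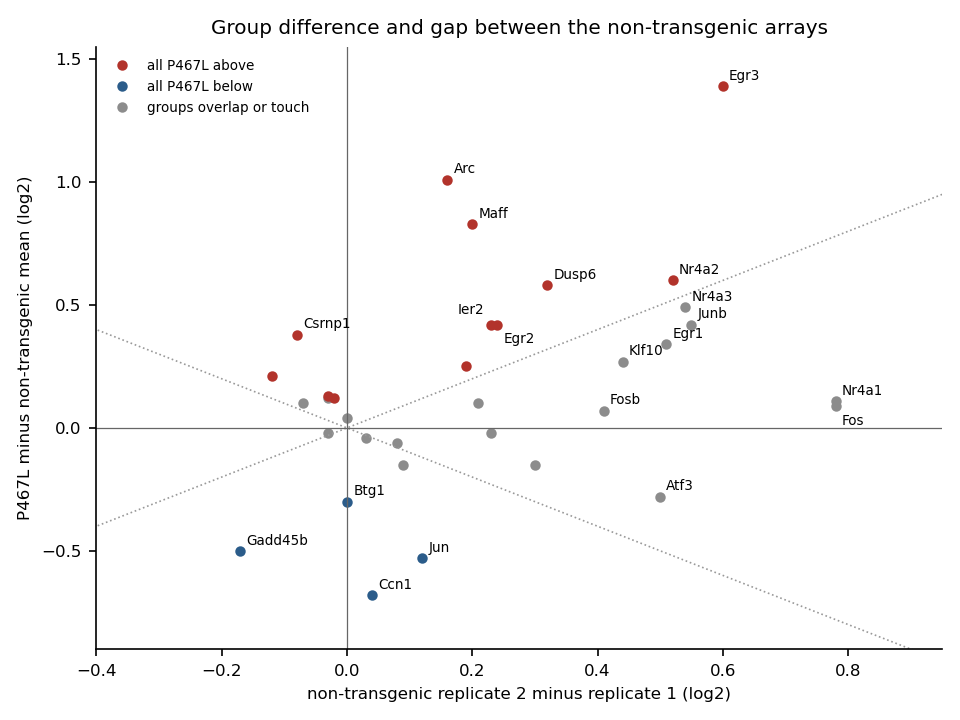
Difference between genotypes (vertical axis, log2) against the gap between the non-transgenic arrays (horizontal axis, replicate 2 minus replicate 1, log2) for the 34 genes; dotted lines mark where both are of equal size. Egr3, Arc, Maff, Csrnp1, Jun, Gadd45b, Btg1 and Ccn1 lie outside the side wedges, while Fos and Nr4a1 lie far inside, with gaps of 0.78 and differences of 0.09 and 0.11.

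Each non-transgenic array was also left out in turn. The spread then comes from the P467L arrays alone, and the lone non-transgenic array is assumed to vary like them, so these counts describe the values more than they test them. Without non-transgenic replicate 2, 12 members were higher and 1 lower at an unadjusted p of 0.05 (all genes 4.73% and 3.48%), and without replicate 1, 5 were higher and 4 lower (all genes 4.69% and 2.60%). Without replicate 2, 20 members lay above and 5 below without overlap (all genes 25.7% and 17.2%), and without replicate 1, 13 and 10 (all genes 27.9% and 13.7%). The Egr1 difference was 0.60 against replicate 1 alone and 0.09 against replicate 2 alone, that of Fos 0.48 and -0.30, and that of Nr4a1 0.50 and -0.28. In the same order Klf10 gave 0.49 and 0.05, Junb 0.70 and 0.15, Nr4a3 0.76 and 0.22, and Ier3 0.00 and -0.30. The differences were steadier for Arc (1.09 and 0.93) and Maff (0.93 and 0.73); for Egr3 they were 1.69 and 1.09, and for Nr4a2 0.86 and 0.34. Without P467L replicate 1, 7 members were higher and 4 lower at an unadjusted p of 0.05 (all genes 7.91% and 4.47%), and Egr3, Arc, Maff and Ccn1 kept their direction whichever single array was left out.

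Genes around the response were read from other lists, none of which had a member past an adjusted p of 0.05. Among 12 feedback inhibitors outside the list, 6 lay above and 1 below without overlap (all genes 16.1% and 6.55%), and the median difference was 0.18. At an unadjusted p of 0.05, which 6.94% of all genes passed on the higher side, 3 were higher and 0 lower: Nab2, a corepressor of EGR proteins, at 0.32 (SE 0.06), the RAS-ERK inhibitor Spred2 at 0.31 (SE 0.06) and the dim phosphatase Dusp4 at 0.22 (SE 0.07). Of 35 other rapidly induced genes, 14 lay above (40%, all genes 16.1%) and 2 below (5.71%, all genes 6.55%), with a median of 0.11. At an unadjusted p of 0.05, 9 were higher (25.7%, all genes 6.94%) and 1 lower (2.86%, all genes 2.51%). The smallest p there belonged to Klf2, a flow-induced factor of endothelium, at 10.98, 10.86 and 10.84 in P467L arrays against 10.49 and 10.48 in non-transgenic arrays. The small GTPase Rnd3 followed at 0.26 (SE 0.06) and the kinase Sgk1 at 0.14 (SE 0.03).

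The upstream machinery was read from further lists. Of 8 genes around serum response factor, 3 lay above and 2 below without overlap (37.5% and 25%, all genes 16.1% and 6.55%). Serum response factor itself (Srf) differed by -0.09 with overlap, and of the 8 genes of its group only the ternary complex factor Elk3 passed an unadjusted p of 0.05, at 0.24 (SE 0.08). Its smooth muscle coactivator Myocd measured 9.90, 10.12 and 10.34 in P467L arrays and 10.38 and 10.57 in non-transgenic arrays, lower in all 3 without passing. The median of 15 measured MAP kinases and upstream kinases was 0.03, with Map3k1, a kinase upstream of JNK, lower at -0.36 (SE 0.10). The 7 CREB family genes had a median of 0.09 and none past an unadjusted p of 0.05. In the YAP, TAZ and TEAD list the median was -0.07 over 12 genes, and 1 lay above and 3 below without overlap (8.33% and 25%, all genes 16.1% and 6.55%). There Wwtr1, which encodes TAZ, measured 10.95, 11.03 and 11.18 in P467L arrays and 11.32 and 11.36 in non-transgenic arrays, Tead2 was higher at 0.46 (SE 0.11). The pathway targets Amotl2 and Ankrd1 differed by -0.43 (SE 0.17), without overlap, and -0.11 (SE 0.09), with overlap.

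Markers of other cells and of stress differed between the groups in places. Each list is given by its summed level on the log2 scale. Macrophages also express immediate early genes, and 10 of 10 macrophage markers were higher (all genes 56.0%). Their sums were 12.88 to 13.24 in P467L arrays and 12.80 to 12.84 in non-transgenic arrays. Relative to the non-transgenic mean, the list median was 0.44, 0.08 and 0.19 in P467L replicates 1 to 3. Without overlap, 5 lay above and 0 below (50% and 0%, all genes 16.1% and 6.55%). C1qb at 0.35 and Laptm5 at 0.25 passed an unadjusted p of 0.05 (20%, all genes 6.94%). Endothelial markers summed to 13.05 to 13.15 in P467L arrays and 12.98 to 13.02 in non-transgenic arrays. Of these 10, 4 lay above and 2 below without overlap (40% and 20%, all genes 16.1% and 6.55%), with Nos3 at 0.47, Cldn5 at 0.73 and Emcn at -1.05. Fibroblast markers summed to 15.80 to 15.88 in P467L arrays and 15.78 to 15.85 in non-transgenic arrays. Of these 9, 3 lay above and 1 below without overlap (33.3% and 11.1%, all genes 16.1% and 6.55%), with Cd248 at 0.64, Col1a1 at 0.15 and Mfap5 at -0.66. Smooth muscle markers summed to 17.05 to 17.07 in P467L arrays and 17.04 to 17.05 in non-transgenic arrays, and desmin (Des) at 0.81 and Smtn at 0.16 passed an unadjusted p of 0.05.

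Lymphocyte markers were lower in 8 of 8 measured, as were 7671 of all 18194 genes. Their sums were 9.08 to 9.31 in P467L arrays and 9.37 to 9.38 in non-transgenic arrays. Without overlap, 2 lay below and 0 above (25% and 0%, all genes 6.55% and 16.1%). Cd22 at -0.28 passed an unadjusted p of 0.05 (12.5%, all genes 2.51%). Red cell markers were lower in 5 of 5 measured, with sums of 11.24 to 12.20 in P467L arrays and 12.22 to 12.32 in non-transgenic arrays. Of these, 2 lay below and 0 above without overlap (40% and 0%, all genes 6.55% and 16.1%). Of 11 heat shock genes, themselves rapidly induced by stress, 10 were lower, including Hspb1 and Bag3 at -0.00. Their sums were 15.59 to 15.79 in P467L arrays and 15.81 to 15.89 in non-transgenic arrays. Without overlap, 3 lay below and 0 above (27.3% and 0%, all genes 6.55% and 16.1%), while 8 overlapped. Relative to the non-transgenic mean, the list median was -0.29, -0.06 and -0.03 in P467L replicates 1 to 3. Hspa1b measured 12.09, 12.02 and 12.07 in P467L arrays and 12.63 and 12.77 in non-transgenic arrays, and Hspa1a, near-identical in sequence, differed by -0.84. Cardiac markers summed to 10.54 to 10.75 in P467L arrays and 10.04 to 10.30 in non-transgenic arrays, with Tnnt2 at 1.02. Of the 9 cardiac markers, 6 were higher and 3 lower, with a median difference of 0.04. Only 1, Tnnt2, lay above without overlap (11.1%, all genes 16.1%), and 0 lay below. Skeletal muscle markers summed to 10.69 to 11.08 in P467L arrays and 10.37 to 10.56 in non-transgenic arrays, with Ckm at 1.33 and Pygm at 0.42. Of the 10 skeletal markers, however, 4 were higher and 6 lower, with a median difference of -0.03. Without overlap, 2 lay above (20%, all genes 16.1%) and 0 below. Neutrophil markers summed to 9.38 to 10.37 in P467L arrays and 9.42 to 9.80 in non-transgenic arrays, and adipocyte markers to 13.00 to 13.40 in P467L arrays and 13.13 to 13.71 in non-transgenic arrays. The part of these cells in the levels of immediate early genes was not tested.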

How the data were processed

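Total RNA of pooled thoracic aortas was measured on 5 arrays. The deposited log2 values come from RMA, and the submitters' processing notes also name Affymetrix Power Tools, without versions. RMA gives every array nearly the same distribution of values, which hides any change common to most genes. Probe sets were named from the platform annotation, with symbols updated through NCBI gene numbers (GRCm38.p6 table, used for names and promoter windows only): of 45037 probe sets, 34945 had 1 gene, 932 several and 9160 none, and 64 control probe sets were left out. The contrast P467L minus non-transgenic was fitted with limma (version 3.58.1, R 4.3.3; two-sided moderated test of lmFit and eBayes, without covariates, 4.23 degrees of freedom in total) over all probe sets, with Benjamini-Hochberg adjustment, and was tested on simulated data. The number of arrays limits the precision; no scan date or batch was used here. The members and gene lists were chosen with earlier results of these data known. Per-array values are given for members whose groups do not overlap, and for others chosen after their values were seen. Of each other list, up to 3 genes with the smallest p among those at an unadjusted p under 0.05 are named, plus Srf, Myocd, Ankrd1 and Amotl2, chosen after their values were seen. Alternatives covered scaling, probe set choice, a filter on dim probe sets, eBayes settings, array weights, a replicate block and leaving out arrays.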

Additional observations from a re-analysis of the deposited data

How the results depend on the processing

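Over 15 alternatives (14 for Egr2 and Myc), 23 of the 34 members kept their sign, 10 turned it and Ier3 reached 0.00 without non-transgenic replicate 2. Those that kept it included Egr3, Arc, Maff, Dusp6, Jun, Gadd45b, Btg1 and Ccn1. No member passed an adjusted p of 0.05 except with array weights, where 9 did (Jun, Maff, Egr3, Arc, Ier2, Csrnp1, Gadd45b, Btg1 and Ccn1), and with gene-by-gene array weights, added after seeing the data, where 3 did (Maff, Arc and Btg1). The first weights stopped before convergence, at 34.1 for P467L replicate 2 and 0.148 for P467L replicate 1. Over all probe sets they called 2245 and 283. Averaging all probe sets of a gene gave 5 members higher at an unadjusted p of 0.05 (6.04% of all genes), with Egr3 at 0.71, Nr4a2 at 0.20, Nr4a3 at 0.14, Csrnp1 at 0.18 and Ccn1 at -1.06.

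Leaving out 1 array at a time gave 0 members past an adjusted p of 0.05, 5 to 12 higher and 1 to 4 lower at an unadjusted p of 0.05, 13 to 20 higher and 4 to 10 lower without overlap, and a median of 0.07 to 0.18. Over all genes these fits gave 4.56% to 9.08% higher and 1.46% to 4.47% lower, and 18.7% to 27.9% higher and 7.83% to 17.2% lower without overlap. The extremes came without non-transgenic replicate 1 (5 higher, 10 lower without overlap, 0.07) and without non-transgenic replicate 2 (12 higher, 1 lower, 20 without overlap, 0.18); without P467L replicate 2, 2 were lower. Without P467L replicate 1 and non-transgenic replicate 2, chosen after seeing the data, 1 was lower and 20 were higher without overlap (all genes 5.33% and 31.8%).

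The sign turned for 10 members with small differences or wide non-transgenic gaps. In the leave-one-out fits Fos ran from -0.30 to 0.48, Nr4a1 from -0.28 to 0.50, Fosb from -0.14 to 0.28, Fosl1 from -0.03 to 0.09, Jund from -0.12 to 0.06, Klf6 from -0.15 to 0.03, Ier5 from -0.01 to 0.21 and Btg2 from -0.13 to 0.10. Centring arrays on their medians gave Jund 0.01, Btg2 0.02 and Dusp5 0.02, and a second quantile normalization gave Dusp5 0.01. Averaging probe sets gave Jund 0.02 and Btg2 0.13. Array weights gave Fosl1 -0.05 and Myc -0.02, and gene-by-gene weights Fosl1 -0.04. Without both arrays that stand apart, Fosl1 was -0.03, Klf6 0.07 and Btg2 0.09. The causes were not tested.

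With the replicate number as a block, no member passed (smallest adjusted p 0.552 in limma), 6 were higher and 3 lower at an unadjusted p of 0.05 (all genes 7.95% and 2.46%), the median was 0.16 and Jund was 0.06. The labels do not say that a number marks a shared batch, and deviations of equal-numbered arrays correlated at 0.113 and 0.00814, so the numbers were not taken to pair the arrays. With the filter on dim probe sets, Egr2 and Myc could not be fitted. With 2 non-transgenic pools, a difference under the gap between them was not resolved.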
